A study of Mus musculus with 4 samples.

Results

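Peritoneal macrophages of C57BL/6 mice, phagocytes of the abdominal cavity, were examined for 10 genes that make, convert or destroy nucleotides and that are discussed in connection with antiviral defence. The genes were *Cmpk2*, *Upp1*, *Nt5c3*, *Dck*, *Samhd1*, *Adar*, *Ada*, *Ampd3*, *Gda* and *Xdh*, picked by their symbol out of 19938 genes that had a named probe. They had been proposed with their LPS response in view, so the difference between LPS and PBS was itself used to select them. Their values are therefore given as a description with no test. All 10 genes were on the array, with 11 probes in all.

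Of the 4 samples, 2 had been given 100 ng/ml LPS, the lipopolysaccharide of Gram-negative bacteria that Toll-like receptor 4 recognises, and 2 had been given PBS as the control. The labels give 6 h of LPS treatment, the series was set up to compare target genes of the microRNA let-7, and each sample was hybridised with a single dye to its own Mouse OneArray Plus microarray. The labels number 2 replicates in each group without saying whether these were separate mice or cultures. All standard errors and p-values thus measure only the spread between these samples, which may be technical.

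Nucleotides are built from small precursors or salvaged from free bases and nucleosides, are interconverted by kinases, and are broken down by nucleotidases, phosphorylases and deaminases that end in uracil breakdown and urate. Viruses need the host's nucleotide pools to copy their genomes. Interferon, which macrophages secrete when Toll-like receptors are engaged, raises several enzymes that alter those pools or edit viral RNA, and some of the same enzymes serve mitochondrial DNA synthesis and adenosine signalling.

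The deposited linear signals were quantile-normalized between arrays and put on the log2 scale, and where the array had more than 1 probe for a gene the brightest was used. A probe was called above background where its deposited detection p was under 0.05. The LPS arrays had median raw signals of 683 and 1054, with 55.8% and 63.3% of probes above background, and the PBS arrays had medians of 1026 and 1047, with 61.7% and 62.2% above background. LPS replicate 1 was thus the dimmest array. The LPS label was borne out by *Il6*, *Tnf*, *Ifit1* and *Irf7*, with log2 fold changes of 8.32, 5.48, 6.84 and 4.89, all past an adjusted p under 0.05 (limma with Benjamini-Hochberg adjustment over all genes). Of 8 macrophage markers, 7 were on the array and all 7 were above background on every array. With RNA from whole cultures, fewer cells of a type and less RNA per cell cannot be told apart.

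Of the 10 genes, 5 were past an adjusted p under 0.05 as higher with LPS, where 3.22% of all genes were, and 0 as lower, where 2.32% of all genes were. Both LPS arrays lay above both PBS arrays for 7 of the 10, against 32.2% of all genes, and below them for 1, against 27.5% of all genes. Since the genes were selected on this same contrast, these counts describe the selection and nothing is read from them. *Samhd1* had the smallest log2 fold change of the 5 genes past that threshold (1.77), and *Ampd3* had the largest of those outside it (0.87). The values fell into 3 patterns, with 5 genes far higher with LPS, 2 genes separated upwards by a narrow margin, and 3 genes with values lower or close together.

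**Figure D1:**
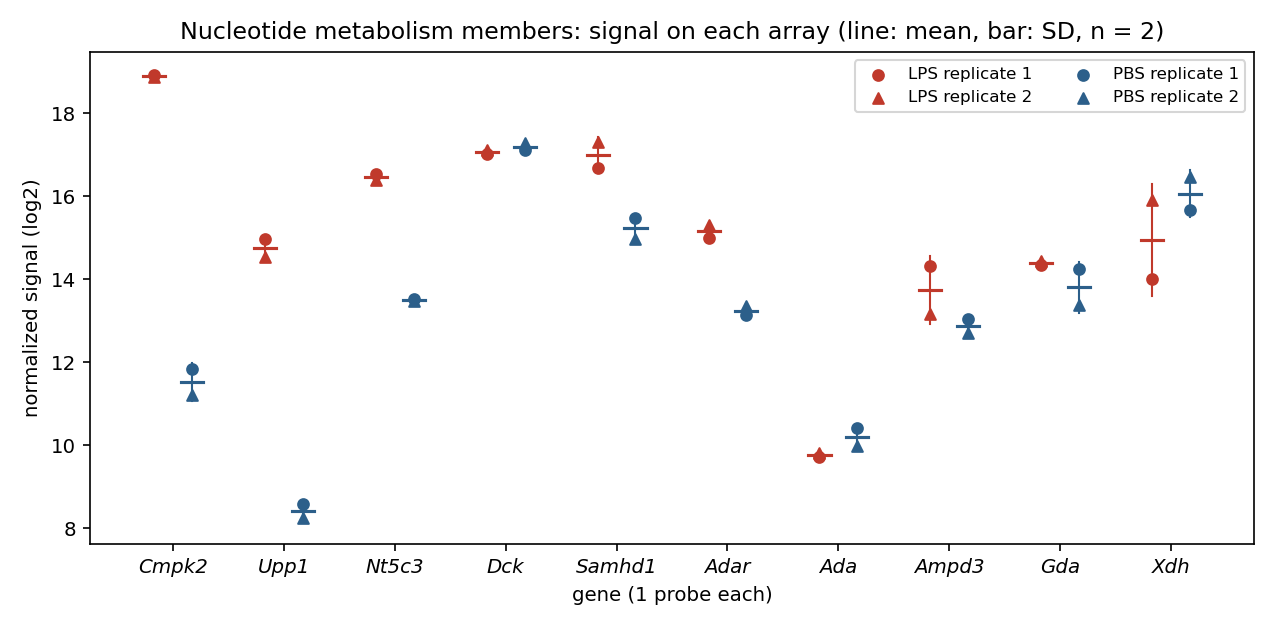
Normalized signal (log2) of the 10 genes on each array, 1 probe a gene, with LPS in red to the left of PBS in blue, circles for replicate 1, triangles for replicate 2, a horizontal line at the mean and a bar for the SD (n = 2). The LPS and PBS points of *Cmpk2*, *Upp1*, *Nt5c3*, *Adar* and *Samhd1* stand well apart, those of *Dck* overlap, and those of *Xdh* spread most within a group.

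Of the 4 pyrimidine enzymes, *Cmpk2*, *Upp1* and *Nt5c3* had the largest differences of the 10 genes, and *Dck* had the smallest. *Cmpk2* encodes the mitochondrial cytidine and uridine monophosphate kinase, which phosphorylates pyrimidine monophosphates for mitochondrial nucleotide pools. Its log2 signal was 18.93 and 18.88 with LPS, against 11.85 and 11.21 with PBS. Every array was above background and the groups were far apart, while the PBS arrays differed from each other more than the LPS arrays did. The log2 fold change was 7.38 (standard error 0.28), or 166-fold, which ranked 6 among the 19938 genes. On the LPS arrays the raw *Cmpk2* signals of 495170 and 525817 ranked 6 and 7 among 22815 named probes, close to the highest signals on those arrays (597900 and 655216). Whether signals so near the top of the scale were compressed was not tested.

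*Upp1* encodes uridine phosphorylase, which splits uridine into uracil and ribose 1-phosphate. Its brighter probe had log2 signals of 14.98 and 14.55 with LPS, against 8.58 and 8.24 with PBS. Neither PBS array was above background (detection p of 0.14 and 0.257), so this probe measured the gene only in the LPS samples. The change is therefore known only from below, with the PBS level put no lower than the dimmest detected signal of each array, and it was at least 54.2-fold. The fitted log2 fold change of 6.36 (standard error 0.26) depends on signals below background. The second *Upp1* probe behaved otherwise, at 9.79 and 9.07 on the log2 scale with LPS, against 8.86 and 9.22 with PBS, with a log2 fold change of 0.39. That probe was above background only on LPS replicate 1 and PBS replicate 2, and its groups overlapped. Averaging both probes gave *Upp1* a log2 fold change of 3.37.

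*Nt5c3* encodes a cytosolic 5'-nucleotidase that prefers pyrimidine monophosphates and takes off their phosphate, the step opposite to that of the kinases. It had log2 signals of 16.55 and 16.40 with LPS, against 13.53 and 13.49 with PBS. Replicates lay close together in both groups and the log2 fold change was 2.96 (standard error 0.20), or 7.80-fold. *Dck* encodes deoxycytidine kinase, the salvage enzyme that also activates many nucleoside drugs. Its log2 signals were 17.03 and 17.11 with LPS, against 17.11 and 17.28 with PBS. The groups overlapped, and the log2 fold change was −0.12 (standard error 0.21). The sign of that value was positive under other scalings, at 0.35 with the 75th percentile, 0.17 with cyclic loess and 0.27 in the second deposited table.

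The 2 genes known for acting on viral nucleic acids or their building blocks were both higher. *Samhd1* encodes the triphosphohydrolase that cleaves deoxynucleoside triphosphates and thereby restricts retroviruses in myeloid cells. It had log2 signals of 16.69 and 17.31 with LPS, against 15.48 and 14.98 with PBS. The groups did not overlap, but the replicates of each group were some way apart. The log2 fold change was 1.77 (standard error 0.32), or 3.41-fold, and it was 1.21 between the samples numbered 1 and 2.33 between those numbered 2. *Adar* encodes the adenosine deaminase that converts adenosine to inosine in double-stranded RNA and keeps cellular RNA from triggering the RNA sensor MDA5. Its log2 signals were 15.01 and 15.31 with LPS, against 13.14 and 13.36 with PBS. The spread within each group was small beside the difference, a log2 fold change of 1.91 (standard error 0.23) or 3.75-fold. The array had 1 *Adar* probe, and its place among the transcripts was not analysed here, so a constitutive and an interferon-induced isoform cannot be told apart.

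Purine catabolism gave a mixed picture with smaller differences. *Ampd3* encodes an AMP deaminase, which turns AMP into IMP. Its log2 signals were 14.32 and 13.17 with LPS, against 13.05 and 12.70 with PBS. Both LPS arrays were above both PBS arrays, but LPS replicate 2 exceeded PBS replicate 1 only slightly. The log2 fold change of 0.87 (standard error 0.43) was 0.29 without LPS replicate 1 and 1.45 without LPS replicate 2. *Gda* encodes guanine deaminase, which makes xanthine from guanine. It had log2 signals of 14.34 and 14.44 with LPS, against 14.24 and 13.38 with PBS. The LPS arrays and PBS replicate 1 were nearly level, and PBS replicate 2 alone was low. The log2 fold change of 0.59 (standard error 0.34) was accordingly 0.16 without PBS replicate 2 and 1.02 without PBS replicate 1.

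*Ada* encodes adenosine deaminase, which removes adenosine and deoxyadenosine and is needed by lymphocytes above all. Its log2 signals were 9.73 and 9.81 with LPS, against 10.43 and 9.98 with PBS. It was the only one of the 10 with both LPS arrays below both PBS arrays, and the gap to PBS replicate 2 was narrow. The log2 fold change was −0.43 (standard error 0.25), or −0.21 without PBS replicate 1. Since *Ada* is strong in lymphocytes, T cell markers are given beside it. All 7 were on the array and 4 were above background on every array. *Cd3e*, *Cd3g*, *Cd8a* and *Lat* were the 4, whereas *Cd3d* and *Cd5* were above background on none. The summed linear signal of all 7 was 20410 and 21020 with LPS, against 17910 and 13760 with PBS. The kinase *Lck* was the only one past the test (log2 fold change 3.61, adjusted p = 0.0046 from limma; not above background with PBS). Without *Lck*, the sum was 15370 and 14130 with LPS, against 17440 and 13270 with PBS, and the groups overlapped. Of 6 B cell markers, 3 were above background on every array. The summed linear signal of the 6 was 5817 and 5172 with LPS, against 8035 and 4380 with PBS, and the groups overlapped. Of 5 NK cell markers, 4 were on the array, and only *Eomes* was above background on every array. The summed linear signal of these 4 was 15410 and 14750 with LPS, against 7911 and 5716 with PBS, and the groups did not overlap. The part of T, B or NK cells in the *Ada* value was not tested.

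*Xdh* encodes xanthine oxidoreductase, which makes urate and, in its oxidase form, reactive oxygen species. Its log2 signals were 14.01 and 15.91 with LPS, against 15.67 and 16.47 with PBS. The groups overlapped, as LPS replicate 2 lay above PBS replicate 1, and the SD within LPS was 1.35. The log2 fold change of −1.11 (standard error 0.68) was −0.16 without LPS replicate 1 and −2.06 without LPS replicate 2. In the deposited raw signals *Xdh* had 13803 and 66434 with LPS, against 61172 and 74712 with PBS. A single low array thus carried most of the difference. In both groups replicate 1 was below replicate 2, as was the summed linear signal of 5 mesothelial markers, at 17630 and 58610 with LPS, against 24960 and 66260 with PBS. Of these 5, 4 were above background on every array, and *Msln* was above background only on 1 PBS array. Replicate 1 was below replicate 2 in both groups for *Upk3b*, *Wt1* and *Lrrn4*, but for *Krt19* and *Msln* only with LPS. The sums of large peritoneal macrophage markers and of dendritic cell markers had the same order in both groups. Among the former, *Gata6* had that order, *Icam2* and *Timd4* had the reverse order in both groups, and *Selp* had it only with LPS. Of 5 dendritic cell markers, only *Zbtb46* was above background on any array. The sums of macrophage, B cell, NK cell and eosinophil markers had the reverse order in both groups. The part of any of these cells in the *Xdh* value was not tested.

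**Figure D2:**
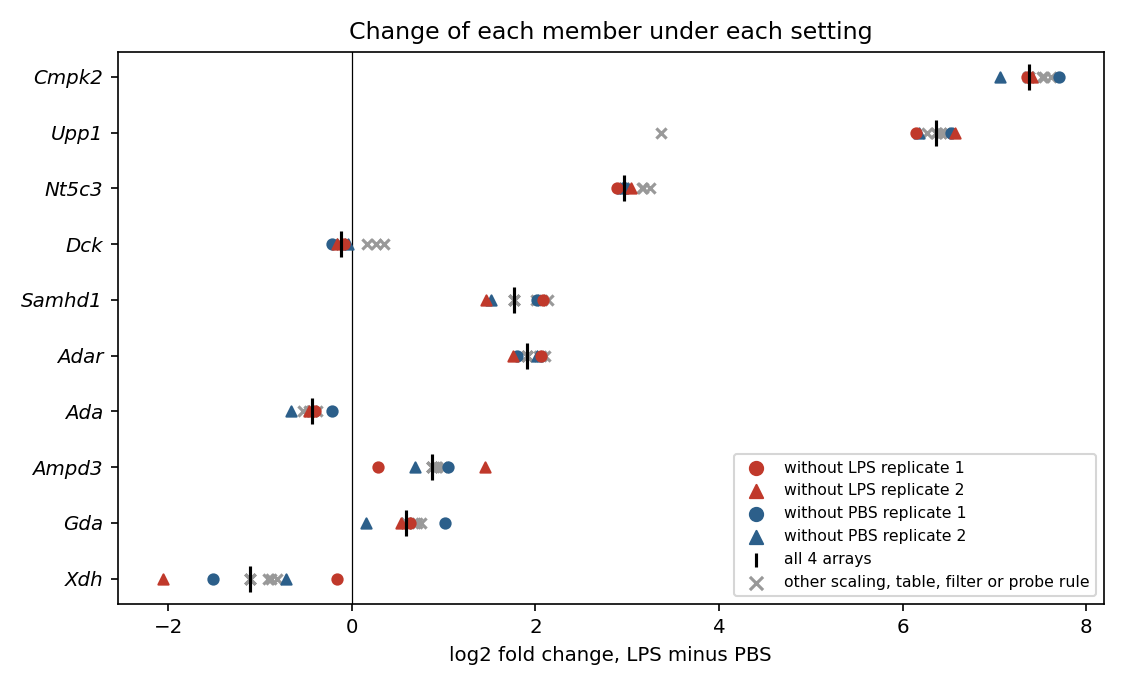
Log2 fold change (LPS minus PBS) of the 10 genes with all 4 arrays (black bars), without each array (red for a missing LPS array, blue for a missing PBS array) and with other scaling, table, filter or probe rules (grey crosses). *Dck* is the only gene whose sign changes, *Upp1* has 1 cross at 3.37 where its probes are averaged, and *Xdh* spans −2.06 to −0.16 when an LPS array is left out.

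Of the 10 genes, 9 kept the sign of their log2 fold change under each of 11 alternatives. Several of these could not have changed a sign. The filters left all 10 values as they were, and averaging probes altered only *Upp1*. Where the groups did not overlap, leaving out an array could not change the sign either. Nothing is therefore read from this count. Leaving out any single array moved *Cmpk2* between 7.06 and 7.70, *Nt5c3* between 2.89 and 3.04, *Adar* between 1.76 and 2.06 and *Samhd1* between 1.46 and 2.08.

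Paralogues of the same enzyme class were set beside the selected genes, and 10 of 11 listed were on the array. Of these, 0 passed an adjusted p under 0.05, where 3.22% of all genes were higher and 2.32% lower. Before adjustment, 3 had a limma p under 0.05, *Tk2*, *Adal* and *Dguok*, each lower with LPS, where 13.9% of all genes were. *Upp2*, the other uridine phosphorylase, averaged 9.24 ± 0.41 on the log2 scale with LPS and 9.05 ± 0.07 with PBS (SD, n = 2 each). Its groups overlapped, with 0.19 as the log2 fold change beside the bound of at least 54.2-fold for *Upp1*. *Nt5c3b*, the closest relative of *Nt5c3*, had log2 signals of 9.24 and 9.08 with LPS, against 8.99 and 9.08 with PBS. It was above background on 1 array of each group, and its log2 fold change was 0.12.

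For the RNA-editing deaminases, *Adarb1* had 0.25 as its log2 fold change (standard error 0.22), and *Adarb2* was above background on no array. Among AMP deaminases, *Ampd2* had log2 signals of 12.86 and 12.92 with LPS, against 12.79 and 12.99 with PBS, with overlapping groups, while *Ampd1*, the muscle form, was above background on no array. The relatives of *Dck* that phosphorylate deoxynucleosides in mitochondria had negative values, −0.59 for *Dguok* (standard error 0.23, adjusted p = 0.187 from limma) and −1.10 for *Tk2* (standard error 0.23, adjusted p = 0.0661 from limma). The *Ada* relative *Adal* had −0.72 (adjusted p = 0.128 from limma), and *Aox1*, an oxidase related to *Xdh*, had −0.21. *Cmpk1*, the cytosolic counterpart of *Cmpk2*, had no probe with its symbol alone. The difference between each gene and its paralogue was not tested.

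**Figure D3:**
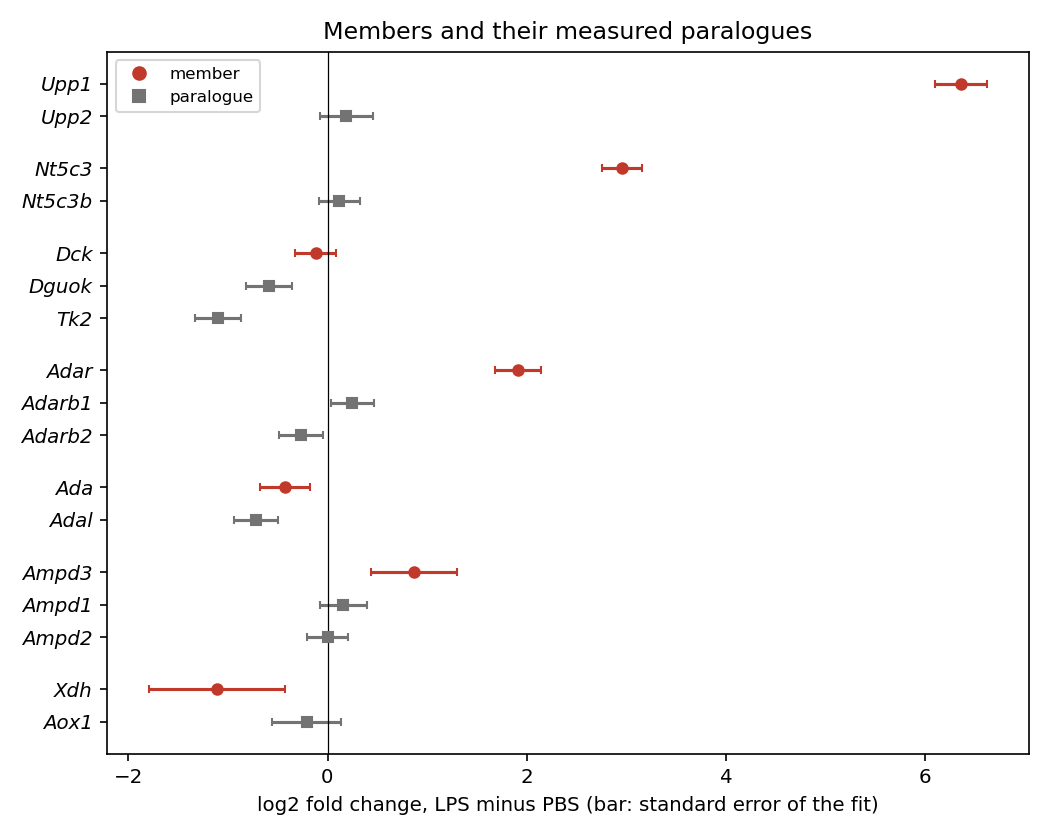
Log2 fold change (LPS minus PBS) with the standard error of the fit for 7 of the selected genes (red circles) and their 10 measured paralogues (grey squares), grouped by family. *Upp1*, *Nt5c3* and *Adar* lie far to the right of their relatives, and every paralogue lies between −1.10 and 0.25.

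The wider pathway was then set beside the 10 genes. Of 98 other genes of nucleotide metabolism listed by their textbook role, 92 were on the array, and 18 of these were above background on no array. With LPS, 4 of the 92 were higher (4.35%) and 2 lower (2.17%) at an adjusted p under 0.05, close to the 3.22% and 2.32% of all genes. Without adjustment, a limma p under 0.05 was reached by 7 higher (7.61%) and 22 lower genes (23.9%), where the shares of all genes were 12% and 13.9%. The median log2 fold change of the list was −0.17, where that of all genes was 0.04, and it lay between −0.24 and −0.12 under the alternatives apart from the filter on dim probes, where it was −0.29 over 72 genes.

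The 4 genes that rose belong to different steps. *Pnp2*, a purine nucleoside phosphorylase that lies beside the main gene *Pnp* in the mouse, had log2 signals of 13.94 and 14.03 with LPS, against 9.38 and 9.85 with PBS. It rose by 4.37 on the log2 scale (adjusted p = 0.00347 from limma, standard error 0.25). *Pnp* itself, at 12.61 and 12.20 with LPS, against 12.25 and 12.11 with PBS, gave 0.22 on that scale (adjusted p = 0.579), and its other probes gave 0.60 and 0.30. As the genes are close copies and probe sequences were not used here, how far each probe reads the other gene was not tested.

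*Ak4*, a mitochondrial adenylate kinase, had log2 signals of 14.17 and 14.70 with LPS, against 11.96 and 12.02 with PBS. It rose by 2.44 on the log2 scale (standard error 0.26, adjusted p = 0.0133 from limma). A second probe above background on all 4 arrays gave 2.56, and a probe above background on none gave 0.40. *Apobec3*, a cytidine deaminase that mutates retroviral DNA, had log2 signals of 14.17 and 14.19 with LPS, against 12.77 and 12.49 with PBS. It rose by 1.55 on that scale (adjusted p = 0.0262 from limma, standard error 0.22), and with 75th percentile scaling and the second deposited table its adjusted p was 0.0537 and 0.0616. *Nt5c1a*, a nucleotidase that prefers AMP, was not above background with PBS and was at least 2.16-fold higher with LPS (adjusted p = 0.0208 from limma).

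The 2 genes that fell were called only by a small margin. *Nt5c*, a nucleotidase of deoxynucleoside monophosphates, had log2 signals of 13.11 and 13.45 with LPS, against 14.57 and 15.16 with PBS, which is −1.58 as a log2 fold change (adjusted p = 0.0494 from limma, standard error 0.29). *Aprt*, which salvages adenine, had 15.62 and 15.32 with LPS, against 16.63 and 16.75 with PBS, which is −1.22 as a log2 fold change (adjusted p = 0.0486 from limma, standard error 0.22). Neither gene passed with 75th percentile scaling (adjusted p = 0.0838 for *Nt5c* and 0.242 for *Aprt*), after cyclic loess (0.082 and 0.0757) or in the second deposited table (0.0883 and 0.2).

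Within the pathway, nucleoside salvage had the lowest median, with a log2 fold change of −0.68 over 10 genes, of which 1 was lower past the test and 7 were lower at a limma p under 0.05 before adjustment. That median was −0.45 after 75th percentile scaling, −0.53 in the second deposited table and −0.54 after cyclic loess. The largest values that did not pass were −1.10 for the mitochondrial thymidine kinase *Tk2* and −1.04 for the uridine and cytidine kinase *Uck1* (adjusted p = 0.0681 from limma). The nucleotide kinases had a median of −0.45 over 14 genes, with *Ak4* higher and 0 lower past the test. *Nme4*, a mitochondrial nucleoside diphosphate kinase, had −1.35 (adjusted p = 0.0565 from limma).

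De novo synthesis gave no call in either direction. In purine synthesis, 0 of 11 genes passed and 2 were lower before adjustment (limma p under 0.05), with the largest values in *Adssl1*, an adenylosuccinate synthase (log2 fold change −1.13, adjusted p = 0.0857), and *Paics*, which acts earlier in the ring's assembly (−0.52, adjusted p = 0.189). In pyrimidine synthesis, 0 of 5 passed and 2 were lower before adjustment, *Dhodh* (−0.70) and *Umps* (−0.64), the last enzymes on the way to UMP.

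The supply and clearance of deoxynucleotides likewise gave 0 of 12 past the test, with 1 higher and 2 lower before adjustment. *Rrm2*, the proliferation-linked subunit of ribonucleotide reductase, had log2 signals of 10.52 and 13.04 with LPS, against 13.37 and 13.57 with PBS. LPS replicate 1 alone was far below the other arrays, as it was for *Xdh*, and the log2 fold change was −1.69 with a standard error of 0.82.

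In the breakdown steps, 13 of 14 phosphorylases, deaminases and base-degrading enzymes did not pass. The cytidine deaminase *Cda* had log2 signals of 12.53 and 12.40 with LPS, against 11.61 and 11.55 with PBS, or 0.89 as a log2 fold change (adjusted p = 0.077). Among 9 nucleotidases, *Nt5c2*, which prefers IMP, had −1.67 and did not pass (adjusted p = 0.0931 from limma), and *Nt5c1b* had 0.47. Of 11 nucleic acid deaminases, 7 were above background on no array, and the RNA editor *Apobec1* had −0.94 (adjusted p = 0.137 from limma). None of 6 nucleoside transporters passed, with 1 higher and 1 lower before adjustment. *Slc29a2*, a nucleoside carrier of the cell membrane with −0.62, was above background on no array, and the lysosomal carrier *Slc29a3* had −0.59 (adjusted p = 0.301).

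**Figure D4:**
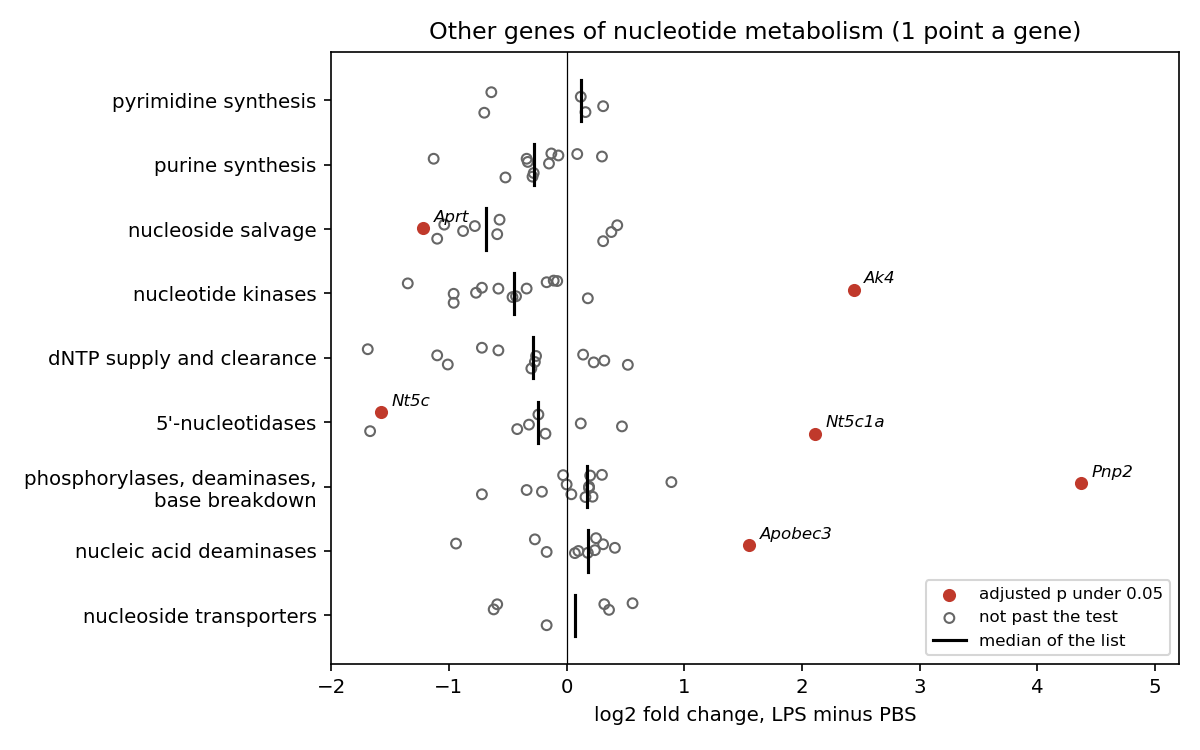
Log2 fold change (LPS minus PBS) of 92 other genes of nucleotide metabolism, 1 point a gene, in 9 lists by role, with filled red points for an adjusted p under 0.05, open points for the rest and a black line at each list's median. *Pnp2*, *Ak4*, *Nt5c1a* and *Apobec3* lie to the right, *Nt5c* and *Aprt* to the left, and nucleoside salvage has the lowest median at −0.68.

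The nearest measured gene on each side of each selected gene was examined next, using the order of genes in the RefSeq annotation of GRCm38.p6. Of 20 such neighbours, 2 were higher past the test and 0 lower, where 3.22% and 2.32% of all genes were. *Rsad2*, which encodes viperin, an enzyme that makes a chain-terminating CTP analogue, lies 12664 bases from *Cmpk2* on chromosome 12. *Rsad2* occupies chr12:26442743-26456452 on the minus strand and *Cmpk2* chr12:26469117-26479837 on the plus strand, so the genes point away from each other. *Rsad2* had log2 signals of 18.90 and 18.90 with LPS, against 12.75 and 12.38 with PBS, and rose by 6.34 on that scale (adjusted p = 0.00167 from limma, standard error 0.23). Both genes were thus among the brightest probes on the LPS arrays, and the gene on the other side of *Cmpk2*, *Gm9866*, had a log2 fold change of 0.22.

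*Rbl1*, a retinoblastoma-like pocket protein, lies 10796 bases from *Samhd1* on chromosome 2. It had log2 signals of 13.52 and 13.70 with LPS, against 11.58 and 11.85 with PBS, and rose by 1.90 on that scale (adjusted p = 0.0172 from limma, standard error 0.22), next to 1.77 for *Samhd1*. *Tldc2*, 585 bases to the other side of *Samhd1*, was above background on no array. *Mob1b*, next to *Dck*, had 11.21 and 10.64 with LPS, against 9.57 and 9.57 with PBS, and did not pass (log2 fold change 1.36 and adjusted p = 0.0561 from limma). *Adm*, which encodes adrenomedullin and lies 137969 bases from *Ampd3*, had wide replicates, with 1.99 as its log2 fold change (adjusted p = 0.137 from limma, standard error 0.63). Apart from *Rsad2*, *Rbl1*, *Mob1b* and *Adm*, the other 16 neighbours had log2 fold changes between −0.74 and 0.62 and did not pass, and 6 of them were above background on no array.

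**Figure D5:**
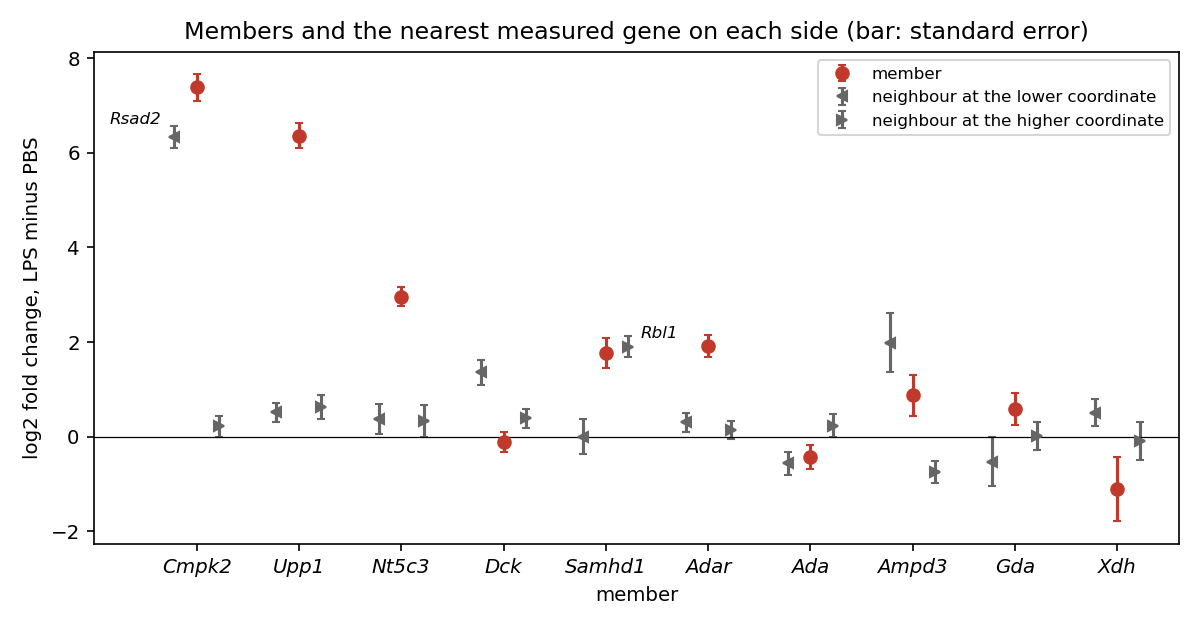
Log2 fold change (LPS minus PBS) with its standard error for the 10 genes (red circles) and the nearest measured gene at the lower and the higher coordinate (grey triangles to the left and right). *Rsad2* at 6.34 and *Rbl1* at 1.90 are the named neighbours past the test, beside *Cmpk2* at 7.38 and *Samhd1* at 1.77.

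The facing upstream regions of *Cmpk2* and *Rsad2* are shown because both genes had such large differences from neighbouring starts. They are from RefSeq, GRCm38.p6, each read 5′ to 3′ on its gene's strand, chr12:26468997-26469116 for *Cmpk2* and chr12:26456453-26456572 for *Rsad2*. Capitals mark the letters GAAANNGAA on either strand, a pattern of interferon regulatory factor (IRF) elements.
Cmpk2: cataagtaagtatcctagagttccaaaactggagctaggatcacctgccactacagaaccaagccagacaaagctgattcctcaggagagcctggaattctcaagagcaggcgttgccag
Rsad2: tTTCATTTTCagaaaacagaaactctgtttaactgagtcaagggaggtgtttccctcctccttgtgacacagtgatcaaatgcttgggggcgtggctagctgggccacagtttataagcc
The *Rsad2* window held the pattern on the opposite strand, beginning 119 bases before the annotated start, and the *Cmpk2* window held none of the letters searched. The absence of a match says only that these letters are not in the window.

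Promoter windows from 250 bases before to 50 bases after an annotated start were searched for 3 patterns on both strands, with 32851 windows in the table. The patterns were GAAANNGAA (in 8.56% of windows), the gamma-activated site TTCNNNGAA (8.3%) and a κB-like pattern GGANNTTCC (4.26%). Of the 10 genes, 9 were in the table with 15 windows. The IRF pattern was in 1 of the 15 windows, the gamma-activated pattern in 3 and the κB-like pattern in 3, and a match is a description of the letters and not of a bound factor. The stretches with matches upstream of the start are shown for *Samhd1* and *Adar*, which were higher with LPS, and for *Ada* and *Ampd3*, which were separated by a narrow margin, with the matches in capitals.
Samhd1: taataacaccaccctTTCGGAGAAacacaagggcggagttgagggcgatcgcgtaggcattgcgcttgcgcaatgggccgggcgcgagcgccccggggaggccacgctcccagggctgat
Adar: gGAAAAGGAACTTCCtcacagggcggagag
Ada: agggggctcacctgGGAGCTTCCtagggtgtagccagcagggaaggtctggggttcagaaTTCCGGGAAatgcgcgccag
Ampd3: atctcgttttttggGGAAAGTCCtggttgg
The *Samhd1* stretch (chr2:157135227-157135346, minus strand) held the gamma-activated pattern 235 bases before the start. The *Adar* stretch (chr3:89730468-89730497, plus strand) lies before the most downstream of 3 annotated starts and held the IRF and the κB-like patterns overlapping each other. The same *Adar* window held the gamma-activated and the IRF patterns after the start as well. The *Ada* stretch (chr2:163750310-163750389, minus strand) held the κB-like pattern 136 bases and the gamma-activated pattern 90 bases before the start, although *Ada* had both LPS arrays below PBS. The *Ampd3* stretch (chr7:110768412-110768441, plus strand) held the κB-like pattern 196 bases before 1 of its 3 starts. *Cmpk2*, *Upp1* and *Nt5c3*, with the largest differences of the 10, had none of the 3 patterns in their windows, and neither did *Dck* or *Gda*. The only *Nt5c3* window (chr6:56901837-56902136, minus strand) lies inside the gene, whose annotated 5′ end is at 56924008. The sequence before that end was not searched.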

How the data were processed

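The authors hybridised each of the 4 samples to its own single-dye Mouse OneArray Plus array. Their deposited intensity table holds, for every probe, a linear signal intensity, a p-value of detection and a flag (a score whose meaning is not stated). Background was taken to have been subtracted, since 60 signals on LPS replicate 1 lie at or below 0, though no source used here gives the method. The authors' second deposited table holds the same intensity times 1 constant per array, from 0.869 to 1.29, and served as an alternative.

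The signals were quantile-normalized, put on the log2 scale and fitted in R 4.3.3 with limma 3.58.1 (lmFit, eBayes) and statmod 1.5.0. P-values were adjusted by Benjamini-Hochberg over 19938 genes, with dim probes kept. The brightest of a gene's probes was used, and 246 probes with several symbols and 3362 with none were left unnamed. The fit had 2 residual degrees of freedom, so the number of arrays limits the precision. The script was tested on simulated data.

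The 10 genes, their relatives and the pathway lists were chosen with earlier results of these data known. Genes named in the text were the 10, up to 5 genes a list past the test in each direction and up to 2 that were not, paralogues, nearest neighbours and the 4 check genes. The mesothelial, T cell, NK cell, large peritoneal macrophage and dendritic cell markers were named after their values were seen. A result that this rule would name is not reported here. Lists of markers of B, NK, mast and dendritic cells, eosinophils and neutrophils were also counted, with 0 genes past the test in each. Sequences are from RefSeq (GRCm38.p6). Alternatives covered scaling, background, filters, probe choice, the replicate block, the variance model, the methods' t-test and each array left out.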

Additional observations from a re-analysis of the deposited data

How the results depend on the processing

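In all, 1104 genes passed (58.2% of them higher), against 529 with 75th percentile scaling (398 higher and 131 lower, 75.2% higher), 438 with the second deposited table (327 and 111, 74.7%) and 791 with cyclic loess (532 and 259, 67.3%). By the methods' t-test 3719 genes passed before Benjamini-Hochberg adjustment and 0 after it. The limma p before adjustment was under 0.05 for 2388 genes higher and 2769 lower. With 1 array left out, 111 to 1207 genes passed (461 higher and 746 lower without LPS replicate 2), the remaining array being taken to vary as those of the other group. Of the 98 other nucleotide genes, the 6 past the test became 3 with 75th percentile scaling, 3 with the second table and 0 with the t-test. The 4 higher ones became 0 with the t-test. The 2 lower ones became 0 with 75th percentile scaling, cyclic loess, the second table or the t-test. With the filter on dim probes they became 5 (*Tk2*, *Uck1* and *Nme4* were added). With 1 array left out, the log2 fold change lay between −1.88 and −1.29 for *Nt5c* and between −1.37 and −1.07 for *Aprt*. It lay between 4.14 and 4.61 for *Pnp2*, 2.18 and 2.71 for *Ak4*, 1.87 and 2.35 for *Nt5c1a*, and 1.41 and 1.68 for *Apobec3*. These are effect sizes only, from fits with 1 array in a group, and do not show that the calls of these 6 genes hold. Of the 10 selected genes, 5 past the test became 4 with 75th percentile scaling, cyclic loess or the second table. In these settings 529, 791 and 438 of all 19938 genes passed. Since the 10 genes were selected on this contrast, nothing is read from their counts.

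With the replicate block, 1165 genes and 6 of the other nucleotide genes passed, *Aprt* did not (adjusted p = 0.0603 from limma) and *Nme4* did (0.0441), as did the neighbour *Adm* (0.0332). Deviations of same-numbered arrays correlated at 0.239 over genes, and with 2 pairs the numbers are not taken to pair the samples. Among the neighbours, *Rsad2* passed without any single array and *Rbl1* did not pass without PBS replicate 1 (0.132), PBS replicate 2 (0.107) or LPS replicate 1 (0.0573).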
